A study of Rattus norvegicus with 18 samples.

Results

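The 6 CCN genes of the rat, Ccn1 to Ccn6, were read in cultured ventricular cardiomyocytes of newborn rats that were stretched, paced fast, or given an inhibitor of the sodium-calcium exchanger (NCX) on top of either trigger. The members were taken by name as the whole gene family, and their clusters chosen by brightness, the mean over all arrays. They are 6 of 14557 genes that the array names with a probe set of their own. A probe set of this array is called a transcript cluster. Each member has 1 cluster with only its symbol, so the instruction to take the brightest cluster of a gene left nothing to choose. The family was proposed when the lower level of Ccn1 with the inhibitor on stretch was already known, so that value is a description and supports nothing.

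CCN proteins are small cysteine-rich proteins that cells secrete into the matrix, where they bind integrins, heparan sulphate proteoglycans and growth factors and tune adhesion and signalling rather than bear load. Ccn1 (earlier Cyr61) and Ccn2 (earlier Ctgf) are textbook targets of YAP and TEAD, the transcription regulators of the Hippo pathway that respond to cell tension. In the heart, Ccn2 is best known for its link to fibrosis.

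All 18 arrays held RNA from ventricular cells isolated from newborn hearts and cultured for 3 days before treatment, in 6 groups of 3 biological replicates. In the stretch experiment, cells were strained biaxially by 20% for 24 h (ST), strained with 10 µM KB-R7934 as the labels spell the NCX blocker (ST with NCXI), or left unstretched (ST control). The study's methods describe the strain as cyclic, and the labels and the methods give different figures for its size. In the tachycardia experiment, cells were paced at 8 Hz for 3 h (TC), paced at 8 Hz with 10 µM KB-R7934 (TC with NCXI), or paced at 1 Hz for as long (TC control). No array held cells given the inhibitor without a trigger, so its effect can be read only on top of ST or TC. Stretch and tachycardia also differ in duration, culture surface and kind of control, and these cannot be told apart from the trigger. RNA of 2 to 6 technical replicates was pooled for an array, and the study describes the cultures as enriched in myocytes, with remaining non-myocytes kept from dividing by BrdU.

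The deposited log2 expression values had medians of 5.26 to 5.34 per array, and replicates correlated at r = 0.978 to 0.988. All 7 measured cardiomyocyte markers, such as the troponin gene Tnnt2 and the desmin gene Des, were brighter than at least 98.3% of clusters. The 10 fibroblast markers were also present, the dimmest brighter than 74.9% of clusters, while 4 of 6 endothelial markers lay under the median cluster of 5.29. Replicate 1 of ST control and replicate 1 of ST stood apart in the fibroblast markers. Their mean was 9.24 in replicate 1 of ST control against 8.56 and 8.73 in the other ST control arrays, and 9.30 in replicate 1 of ST against 8.83 and 8.995. By the labels, these replicate 1 arrays pooled 4 technical replicates each and the other stretch arrays 2. The part of the pooling was not tested. Results that rest on the replicate 1 arrays of ST control and ST are given with and without them.

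RefSeq (build GRCr8) gave a promoter for 3 of the 6 members, Ccn1, Ccn2 and Ccn6. Those of Ccn1 and Ccn2, the members counted in the comparisons that follow, are shown. The sequences below are the 250 bases before the start site of Ccn1 (chr2:237225690-237225939, minus strand) and of Ccn2 (chr1:22624615-22624864, minus strand), 5′ to 3′ along the gene, with the TEAD element CATTCC or its reverse GGAATG in capitals.
Ccn1: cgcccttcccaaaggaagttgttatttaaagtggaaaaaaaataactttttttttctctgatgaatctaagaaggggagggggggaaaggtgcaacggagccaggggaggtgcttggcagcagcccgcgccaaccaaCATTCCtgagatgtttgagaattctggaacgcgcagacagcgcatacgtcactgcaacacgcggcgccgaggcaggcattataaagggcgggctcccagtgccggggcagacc
Ccn2: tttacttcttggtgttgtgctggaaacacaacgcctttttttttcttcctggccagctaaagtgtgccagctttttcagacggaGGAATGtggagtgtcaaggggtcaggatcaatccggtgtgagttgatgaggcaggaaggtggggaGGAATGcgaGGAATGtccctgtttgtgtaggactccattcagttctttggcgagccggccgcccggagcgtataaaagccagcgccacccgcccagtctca
The element was searched on both strands from 250 bases before to 50 bases after the start. Ccn1 held 1 match, at -113 to -108 from the start. Ccn2 held 3 matches, at -166 to -161, -101 to -96 and -92 to -87, all in the reverse direction. Ccn6 held 0. Of 27457 rat genes with such a window, 13.9% held at least 1 match and 0.106%, or 29 genes, held at least 3. Of the other motifs, the SMAD element CAGAC stood in 13720 of those windows and in all 3 members (2, 2 and 3 matches), TATAAA in 14.3% and once each in Ccn1 and Ccn2. The AP-1 element TGANTCA (7.33% of windows) and the CArG box of SRF (1.64%) were in none of the 3. A match is a description of the letters, not of a bound site.

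Ccn2 was the member counted in both trigger comparisons. A cluster was counted when its unadjusted limma p was under 0.05 and its change at least 1.2-fold, the thresholds in the study's legend. The supplement names Benjamini-Hochberg correction for the arrays, so adjusted p-values are given beside the members counted with all arrays of an experiment. The main limma fit used default options and no replicate number, and was adjusted over all 36685 clusters. No member reached an adjusted p under 0.05 in any of its comparisons. Ccn1 did so in ST with NCXI against ST control with the replicate number as a block (limma adjusted p = 0.0425), where 82 clusters did. With limma's trend and robust options it did so there (limma adjusted p = 0.0301), where 125 clusters did. With those options it also did so in ST with NCXI against ST (limma adjusted p = 0.0453), where 38 clusters did. Further settings that brought Ccn1 under an adjusted p of 0.05, such as dim clusters removed, are covered in the last section. In the main fits, 0.00545% of all clusters did so with the inhibitor on ST and 0.164% in ST with NCXI against ST control. The share was 0.0136% in the difference between the inhibitor's effects, and 0 in each of the other comparisons.

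Ccn2 stood at 11.18, 10.58 and 10.52 in the ST control arrays and at 11.48, 11.45 and 11.00 in the ST arrays. Replicate 1 of ST control lay above replicate 3 of ST, so the groups overlapped, though each ST array was above the ST control array of its own number. The difference was 0.55 on the log2 scale, or 1.46-fold (SE 0.20, limma adjusted p = 0.54). Among array pairs of the same number it was 0.30, 0.88 and 0.47. The call was lost without replicate 2 or 3 of ST control (0.46 and 0.43) or replicate 1 or 2 of ST (0.47 and 0.48). Without the replicate 1 arrays of both groups it was 0.68 and was counted.

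Ccn2 was the only member counted in ST against ST control, 1 of 6, where 7.45% of all clusters were counted and 3.12% were counted as higher. Ccn1, a ligand of several integrins, stood at 10.19, 10.06 and 10.01 in ST control and at 10.24, 10.22 and 9.76 in ST, a difference of -0.01 (SE 0.15). The groups overlapped, and the 95% interval of the difference ran from -0.35 to 0.32. Ccn3, Ccn4, Ccn5 and Ccn6 differed by -0.03, 0.21, 0.29 and -0.08, and none was counted. The median of the 6 differences was 0.10, against -0.0049 over all clusters.

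Ccn5 (earlier Wisp2), the member that lacks the C-terminal module of the family, depended on 1 array. It stood at 8.10, 7.13 and 7.03 in ST control and at 7.97, 7.68 and 7.49 in ST. Replicate 1 of ST control was the highest of these 6 values, and without it the difference went from 0.29 (SE 0.27) to 0.63 and was counted. Without the replicate 1 arrays of both groups it was 0.50, also counted. The fibroblast markers were high in the same arrays, and their part in this result was not tested.

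**Figure D1:**
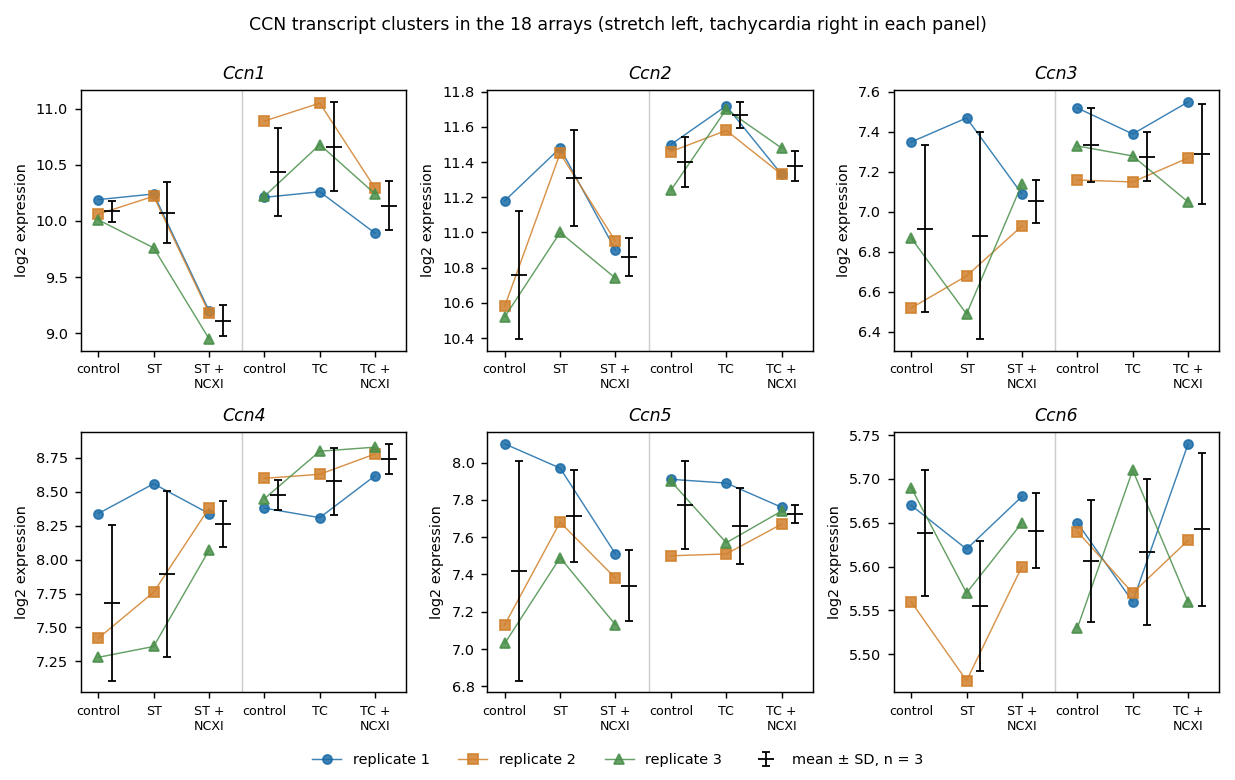
Log2 expression (y axis, a separate scale in each panel) of Ccn1 to Ccn6 in the 18 arrays by group (x axis), with stretch groups left and tachycardia groups right of the grey line. Coloured points are arrays, thin lines join arrays of the same replicate number, and black bars are mean ± SD (n = 3). Ccn1 is lowest in the 3 arrays of ST with NCXI (8.95 to 9.20), and Ccn2 is higher in the 3 TC arrays (11.58 to 11.72) than in every other tachycardia array.

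With the inhibitor on stretch, Ccn1 and Ccn2 were both counted as lower. These were 2 of 6 members, where 4.52% of clusters were counted as lower and 9.13% in either direction. Both were also lower without overlap of the arrays, which held in that direction for 7.3% of clusters. The family was proposed with the lower level of Ccn1 known, so its place among the 2 is no result. The counts are a description.

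Ccn1 stood at 9.20, 9.18 and 8.95 in ST with NCXI, below all 6 other stretch arrays. The mean was 9.11 ± 0.14 against 10.07 ± 0.27 in ST (SD, n = 3), a difference of -0.96 (SE 0.15) or 1.95-fold lower, the 41st smallest limma p of all clusters (adjusted p = 0.0971). It stayed counted when any 1 array was left out, at -1.12 to -0.88. This lower level was known when the family was proposed, so its values here are a description. Against ST control, Ccn1 in ST with NCXI was 1.97-fold lower (-0.98, SE 0.15, limma adjusted p = 0.0537), the only member of 6 counted there, where 10.2% of clusters were counted and 5.38% as lower. Its groups did not overlap in this comparison either, as for 8.66% of clusters in that direction.

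Ccn2 stood at 10.90, 10.95 and 10.74 in ST with NCXI, a narrow range below the 3 ST arrays and inside that of ST control. It differed from ST by -0.45, or 1.36-fold lower (SE 0.20, limma adjusted p = 0.519), and from ST control by 0.10 (SE 0.20, 95% interval -0.35 to 0.55). The 95% interval of the difference from ST, -0.896 to -0.000877, came next to 0, and the call was lost without replicate 2 of ST control (-0.45), without replicate 1 or 2 of ST (-0.36 and -0.38) and without any array of ST with NCXI (-0.47, -0.49 and -0.39). Without the replicate 1 arrays of both ST control and ST, the difference from ST was -0.36 and was not counted. The arrays of ST with NCXI thus overlapped those of the unstretched cells in Ccn2 and lay below them in Ccn1.

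Ccn4 (earlier Wisp1), known as a WNT-responsive gene, stood at 8.34, 7.42 and 7.28 in ST control, at 8.56, 7.76 and 7.36 in ST, and at 8.34, 8.38 and 8.07 in ST with NCXI. The replicate 1 arrays of ST control and ST reached the range of the inhibitor arrays or passed it, and the other 4 were below it. The difference between ST with NCXI and ST was 0.37 (SE 0.34) with all arrays. It was counted at 0.70 without replicate 1 of ST, and likewise without the replicate 1 arrays of both groups. Against ST control it was 0.58 (SE 0.34) with all arrays and was counted at 0.91 without replicate 1 of ST control.

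Ccn3 (earlier Nov) ranged from 6.49 to 7.47 over ST control and ST and from 6.93 to 7.14 in ST with NCXI, a difference from ST of 0.17 (SE 0.27). Without the replicate 1 arrays of ST control and ST, Ccn3 was counted at 0.46. Ccn5 ranged from 7.13 to 7.51 in ST with NCXI and differed from ST by -0.37 (SE 0.27). It was counted without replicate 1 of ST control (-0.37). Ccn6 (earlier Wisp3), whose cluster was brighter than 55.1% of clusters, kept between 5.47 and 5.74 in all 18 arrays, and differed by 0.09 (SE 0.10). The brightness of a cluster also depends on its probes, so it gives no order of transcript amounts between members.

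**Figure D2:**
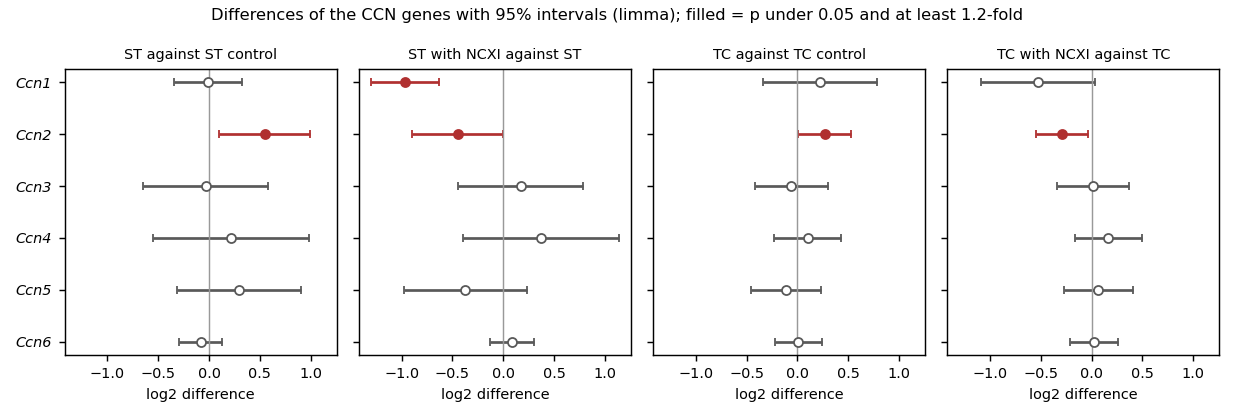
Log2 differences (x axis) of the 6 members (rows) in 4 comparisons, with 95% intervals from limma. Filled red points are counted, with p under 0.05 and at least 1.2-fold. With the inhibitor, Ccn1 lies at -0.96 on ST and -0.53 on TC, and Ccn2 at -0.45 and -0.29.

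In tachycardia, Ccn2 was the only member counted, and this call was lost with all 18 arrays in the fit, with only the groups compared, and in the fit blocked by replicate number. Ccn2 stood at 11.50, 11.46 and 11.24 in TC control and at 11.72, 11.58 and 11.70 in TC, so the arrays did not overlap, as for 4.39% of clusters in that direction. The difference was 0.27, close to the fold threshold (SE 0.11, limma adjusted p = 1), 1 of 6 members where 3.91% of clusters were counted and 2.09% as higher. The call was lost without replicate 2 of TC control (0.30) or replicate 3 (0.19), without replicate 1 or 3 of TC (0.24 and 0.25), and without replicate 1 or 2 of TC with NCXI (both 0.27).

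Ccn1 stood at 10.21, 10.89 and 10.22 in TC control and at 10.26, 11.05 and 10.68 in TC. Replicate 2 was the highest in both groups, which overlapped, and the difference of 0.22 (SE 0.25) was not counted. Ccn3, Ccn4, Ccn5 and Ccn6 differed by -0.06, 0.10, -0.11 and 0.01 and were not counted. None of these 4 differences was larger than its SE.

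With the inhibitor on tachycardia, Ccn2 stood at 11.33, 11.33 and 11.48, below all 3 TC arrays. The difference was -0.29, or 1.22-fold lower (SE 0.11, limma adjusted p = 0.793). Ccn2 was 1 of 6 members counted, where 5.77% of clusters were counted and 2.5% as lower, and its groups did not overlap, as for 4.87% in that direction. The call was lost without replicate 1 or 3 of TC (-0.26 and -0.27) or replicate 1 or 2 of TC with NCXI (-0.26 and -0.27).

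Ccn1 stood at 9.89, 10.29 and 10.24 in TC with NCXI, and each array was lower than the TC array of its number, by 0.37, 0.77 and 0.44. The groups overlapped, since replicate 1 of TC was also low, and the difference of -0.53 (SE 0.25, limma adjusted p = 0.869) was not counted. In this comparison the replicate numbers pair the arrays, and with the number as a block Ccn1 was counted (limma adjusted p = 0.449). This makes 2 of 6 members, where 7.86% of clusters were counted with the block. Without the block it was counted when replicate 1 of TC was left out (-0.73), or replicate 2 of TC control (-0.53). Ccn3, Ccn4, Ccn5 and Ccn6 differed by 0.02, 0.17, 0.07 and 0.03.

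Against TC control, TC with NCXI had 0 of 6 members counted by limma, where 8.65% of clusters were counted, and also 0 at an unadjusted p under 0.05 alone, which 8.9% of clusters had. Ccn1 differed by -0.30 (SE 0.25) and Ccn2 by -0.02 (SE 0.11). Ccn4 was at 8.62, 8.78 and 8.83 with the inhibitor and at 8.38, 8.60 and 8.45 in TC control, apart without overlap as for 8.32% of clusters in that direction, with a difference of 0.27 (SE 0.14).

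Ccn2 was thus counted in all 4 comparisons of a trigger with its control or of the inhibitor with its trigger, which held for 6 of 36685 clusters. It was higher with both triggers and lower with the inhibitor on both, as 3 clusters were. The pattern does not hold under the settings that end its call in TC, given above, and with all 18 arrays in the fit the call with the inhibitor on TC was lost too. The stretch calls of Ccn2 were not stable either. Leaving out a single array ended its call in 4 of 9 fits in ST and in 6 of 9 with the inhibitor on ST. For tachycardia this was 6 of 9 in TC and 4 of 9 with the inhibitor on TC. At 1.5-fold, its calls in ST and with the inhibitor on ST were lost as well. The comparisons with the inhibitor reuse the arrays of the trigger alone, which favours opposite signs, so these counts are a description.

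The responses of the members were next compared between the experiments. The stretch effect minus the tachycardia effect was 0.28 for Ccn2 (SE 0.23, 95% interval -0.21 to 0.78), -0.24 for Ccn1 (SE 0.30) and 0.41 for Ccn5 (SE 0.32), with 0 of 6 members counted where 6.02% of clusters were. The inhibitor's effect on ST minus that on TC was -0.44 for Ccn1 (SE 0.30, interval -1.08 to 0.21), -0.16 for Ccn2 (SE 0.23) and -0.44 for Ccn5 (SE 0.32), again with 0 of 6 where 6.13% of clusters were counted. With the replicate number as a block, 1 of 6 was counted in the latter, Ccn1 (limma adjusted p = 0.468). Without replicate 1 of ST control, the stretch minus tachycardia difference of Ccn2 (0.49) and Ccn5 (0.75) was counted, and without replicate 2 of TC that of the inhibitor's effects on Ccn1 (-0.63).

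Ordered by level, Ccn1 was highest in TC (10.66 ± 0.40), then TC control (10.44 ± 0.39), TC with NCXI (10.14 ± 0.22), ST control (10.09 ± 0.09) and ST (10.07 ± 0.27), and lowest in ST with NCXI (9.11 ± 0.14, SD, n = 3 throughout). Only the last step was without overlap of the arrays. Ccn2 was highest in TC (11.67 ± 0.07), then TC control (11.40 ± 0.14), TC with NCXI (11.38 ± 0.08), ST (11.31 ± 0.27), ST with NCXI (10.86 ± 0.11) and ST control (10.76 ± 0.36). Here TC was apart from TC control and ST from ST with NCXI, and the other neighbours overlapped. All 9 tachycardia arrays had Ccn2 above the inhibitor arrays of the stretch experiment. For Ccn3, 1 step was without overlap, from TC (lowest array 7.149) to ST with NCXI (highest array 7.136). For Ccn4, Ccn5 and Ccn6 all neighbours overlapped. No share of all clusters was computed for gaps between the experiments, where trigger, duration and culture surface cannot be told apart. Such gaps are therefore only descriptions of the arrays.

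Spread between replicates was uneven. In the stretch groups the SD within a group was 0.39 for Ccn3, 0.49 for Ccn4 and 0.38 for Ccn5, against 0.19, 0.17 and 0.18 in the tachycardia groups. Ccn1 went the other way, with 0.18 in the stretch groups and 0.35 in the tachycardia groups. Ccn6 stayed at 0.06 and 0.08.

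Genes of the pathways that act on or through CCN proteins were read from lists, several of which share genes. Of all clusters, 3.12% were counted as higher and 4.33% as lower in ST, 4.6% and 4.52% with the inhibitor on ST, and 3.27% and 2.5% with it on TC. Of 17 measured YAP and TEAD targets other than CCN genes, 6 were counted as lower and 0 as higher with the inhibitor on ST, with a median of -0.19. They included Amotl2, which binds and restrains YAP, at -0.58 (SE 0.18), Ajuba, a LIM protein that inhibits LATS kinases, at -0.45 (SE 0.15), Crim1, a membrane protein that binds bone morphogenetic proteins, at -0.45 (SE 0.12), and Ankrd1, a stretch-responsive titin-associated protein, at -0.37 (SE 0.13). On TC, 0 of the 17 were counted with the inhibitor (median -0.07). In ST against control, Crim1 was counted as higher (0.43, SE 0.12) and Gadd45a, a stress-induced gene, as lower (-0.83, SE 0.21), with a median of 0.21, and in TC against control 0 of 17 were counted.

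Among 14 Hippo pathway components, 3 were counted as lower with the inhibitor on ST. These were Amotl2, the phosphatase Ptpn14 (-0.55, SE 0.20) and the kinase Lats2 (-0.29, SE 0.12), which are also in the target list. In the other 3 comparisons of trigger or inhibitor, 0 were counted.

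Of 12 MRTF and SRF targets, 4 were counted as lower with the inhibitor on ST and 0 on TC. The 4 were the actin genes Actg2 (-0.83, SE 0.19) and Acta1 (-0.97, SE 0.41), Srf itself (-0.29, SE 0.13) and the calponin-related Tagln (-0.52, SE 0.23). In ST against control, Acta1 (1.13, SE 0.41) and the focal adhesion gene Zyx (0.38, SE 0.17) were counted as higher, and the immediate-early genes Fos (-0.95, SE 0.12) and Egr1 (-0.49, SE 0.18) as lower. In TC against control 0 of the 12 were counted.

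Of 12 TGF-beta and SMAD targets, 4 were counted as lower with the inhibitor on ST, among them the collagen genes Col1a2 (-0.62, SE 0.18) and Col1a1 (-0.64, SE 0.24) and the transcriptional inhibitor Id1 (-0.45, SE 0.16). The repressor gene Bhlhe40 was counted as higher (0.88, SE 0.13, limma adjusted p = 0.0834). Id1 (-0.75, SE 0.13) and Id3 (-0.65, SE 0.27) were counted as lower with the inhibitor on TC. In ST against control, Bhlhe40 was counted as lower (-0.42, SE 0.13), and in TC against control 0 of the 12 were counted.

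Of 11 genes of CCN receptors and partners, the leukocyte integrin chain Itgam was counted as lower with the inhibitor on ST (-0.67, SE 0.18). On TC the fibronectin receptor chain Itga5 (0.41, SE 0.10) and the proteoglycan Sdc4 (0.34, SE 0.13) were counted as higher, and the leukocyte integrin chain Itgb2 (-0.81, SE 0.23) and the growth factor Bmp4 (-0.63, SE 0.20) as lower, and 0 of the 11 were counted in either trigger against its control. Of 9 other matricellular genes, Sparcl1 (-0.43, SE 0.17) and the elastic fibre gene Fbln5 (-0.82, SE 0.33) were counted as lower with the inhibitor on ST. None of the 9 was counted in the other 3 comparisons.

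**Figure D3:**
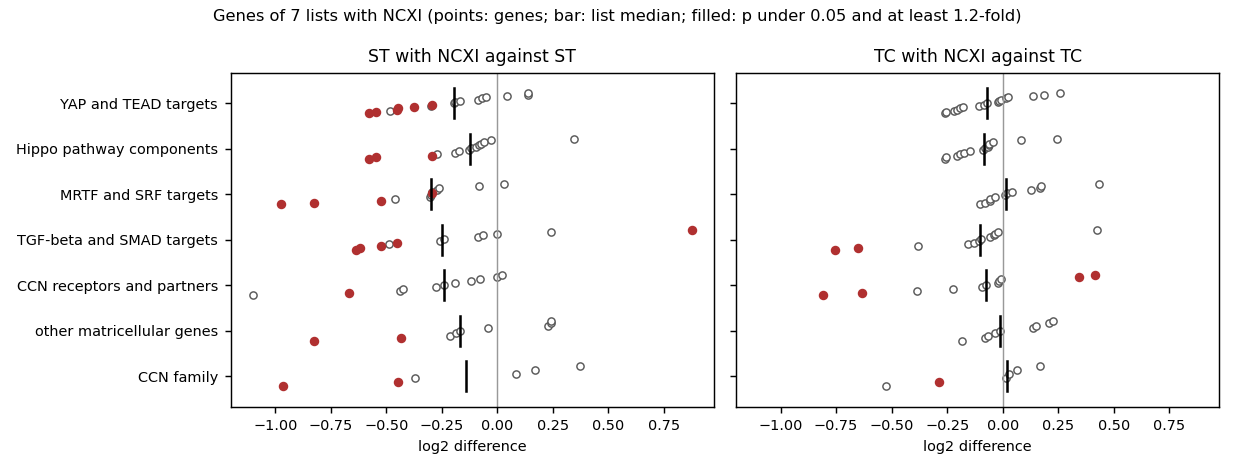
Log2 differences (x axis) of the genes of 7 lists (rows) with the inhibitor on ST (left) and on TC (right). Each point is a gene, filled where counted, and the vertical bar is the list's median. Of the 17 YAP and TEAD targets, 6 are filled on the left, all below 0, and 0 on the right.

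Cell type markers moved with the inhibitor. Of 9 macrophage markers, 7 were counted as lower on ST (median -1.45) and 4 on TC (median -0.48), as for Lyz2, a lysozyme, at -2.59 (SE 0.75) on ST. Their mean lay between 5.24 and 6.10 in ST with NCXI, between 6.18 and 7.78 in ST and between 6.36 and 7.44 in ST control. Their mean was 6.02 to 6.48 in TC with NCXI and 6.57 to 6.86 in TC, also without overlap. In bulk RNA, fewer cells of a type and less RNA per cell cannot be told apart.

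Of 10 fibroblast markers, Col1a1 and Col1a2 were counted as lower and Dcn, a matrix proteoglycan, as higher (0.92, SE 0.27) with the inhibitor on ST. Their mean lay between 8.85 and 8.90 in ST with NCXI, inside the range of 8.83 to 9.30 in ST, and in the tachycardia arrays between 9.32 and 9.55. On TC, 0 of 10 were counted. Endothelial markers had 1 of 6 counted as lower on each trigger and smooth muscle markers 2 of 2 on ST and 0 on TC, and of 7 cardiomyocyte markers 1 was counted as higher on ST and 0 on TC. Over the 18 arrays, each taken as the deviation from the mean of its experiment, Ccn1 followed the mean of the 2 smooth muscle markers (Tagln and Lmod1) with Pearson r = 0.804 and that of the macrophage markers with 0.547. Ccn1 had 0.425 with the endothelial and 0.235 with the fibroblast markers. Ccn2 followed the endothelial markers with 0.666 and the fibroblast markers with 0.631, and had 0.448 with the smooth muscle and -0.0453 with the macrophage markers. With the cardiomyocyte markers, Ccn1 had -0.489, Ccn2 0.466 and Ccn5 0.548. Ccn5 had 0.742 and Ccn3 0.656 with the fibroblast markers. These arrays share groups and replicate numbers, so the r are descriptions, and the part of the markers in the values of Ccn1 and Ccn2 was not tested.

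**Figure D4:**
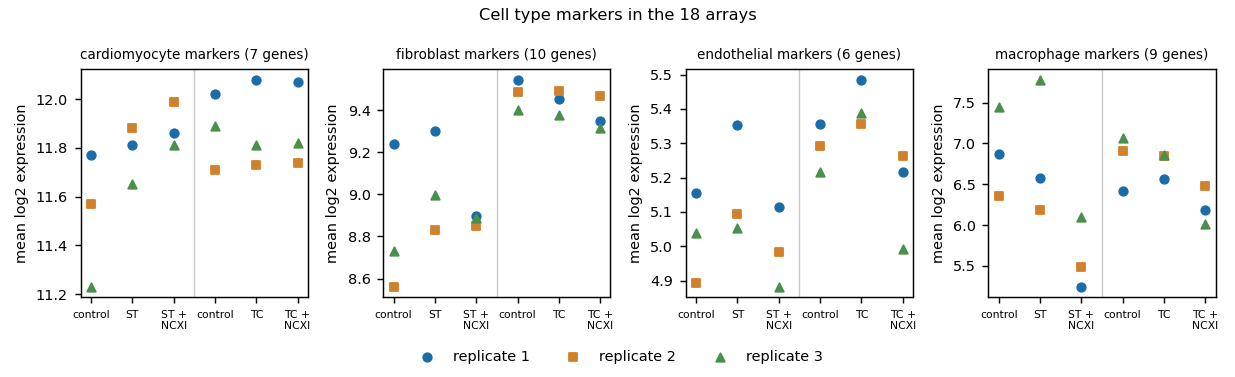
Mean log2 expression (y axis, a separate scale in each panel) of the markers of 4 cell types in the 18 arrays by group (x axis), with point shape and colour for the replicate number. Macrophage markers are lowest in the ST with NCXI arrays at 5.24 to 6.10, and fibroblast markers are higher in the replicate 1 arrays of ST control and ST, at 9.24 and 9.30, than in the other stretch arrays.

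The genes most like Ccn1 over the 18 arrays, each array taken as the deviation from the mean of its experiment, were Rnd3, Orc6, Cenpp, Mrc2 and Gas2l3, with Pearson r from 0.864 to 0.914 among 8727 genes. With the inhibitor they differed by -0.46, -0.47, -0.72, -0.52 and -0.87 on ST and by -0.30, -0.19, -0.29, -0.30 and -0.33 on TC. For Ccn2 they were Basp1, Rai2, Ddah1, Ust and Marcks, with r from 0.864 to 0.889, and differences of 0.67, 1.29, 0.83, 0.49 and 0.54 in ST against control. Only Rai2 among these 5 had a difference over 0.1 in TC against control (0.32), where Ccn2 had 0.27. These r are descriptions over arrays that share groups and replicate numbers, and they carry no test.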

How the data were processed

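Total RNA was hybridised to 18 Rat Gene 2.0 ST arrays. The authors summarised and filtered the scans with Partek Genomics Suite and deposited log2 expression of 36685 transcript clusters. The normalization method is not given in the sources used here, and depth is not defined for arrays, whose number limits the precision. Of the clusters, 14824 carry exactly 1 gene symbol in the platform table, and 105 of 156 list genes were measured on one. Values were used as deposited. limma 3.58.1 (R 4.3.3) was fitted to the 9 arrays of each experiment, or to all 18 for differences between experiments, with Benjamini-Hochberg adjustment over all clusters, after the code was tested on simulated data. The study's supplement names a two-way ANOVA with Benjamini-Hochberg correction for the arrays, which was run as an alternative. The members and lists were chosen with earlier results of these data known. Of each list the text names up to 4 genes with the smallest p per comparison, and for Ccn1 and Ccn2 the 5 most alike genes. Replicate numbers come from the labels, which do not say that a number marks a shared isolation. Same-numbered arrays deviated together in every pair (correlation over 0.1) in ST against ST control (0.295, 0.124 and 0.242) and TC with NCXI against TC (0.252, 0.228 and 0.13), so these were taken as paired. The SEs, and the p-values where no setting is named, come from fits without the block, in these comparisons too. TC against TC control did not meet the correlation limit (lowest 0.0454), so its fit with the block is only an alternative. Alternatives varied the arrays in the fit, the block, the moderation, dim clusters, normalization, test and fold threshold. No column was left without a sample.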

Additional observations from a re-analysis of the deposited data

How the results depend on the processing

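The count of CCN members was small in each comparison, so 1 gene near a threshold moved it. In TC against TC control the count of 1 became 0 with all 18 arrays in the fit (4.38% of all clusters counted). It was also 0 with only the groups compared (4.04%), with the replicate block (5.18%), in the two-way ANOVA with replicate block (3.12%) and at 1.5-fold. With the inhibitor on TC it was 2 with the replicate block (7.86% of all clusters) and in the two-way ANOVA (5.18%), and 0 at 1.5-fold. In ST it was 0 by the t-test (4.48% of all clusters), which the methods name for pairs of groups and not for the arrays, and at 1.5-fold. With the inhibitor on ST it was 1 after quantile normalization (9.27%), by the t-test (6.03%) and at 1.5-fold. In ST with NCXI against ST control it was 2 with the replicate block (12.6% of all clusters), which added Ccn4. In TC with NCXI against TC control it was 1, Ccn4, by the t-test (5.88% of all clusters) and in the two-way ANOVA (7.71%). The inhibitor's effect on ST minus that on TC had 1 member counted with the replicate block, Ccn1. The block changed no other count. With all 18 arrays in the fit, Ccn1 was counted with the inhibitor on TC in place of Ccn2. Leaving out both number-1 arrays of ST control and ST, chosen after seeing the data, gave 2 in ST, 3 with the inhibitor on ST and 2 in ST with NCXI against ST control. No share of all clusters was computed for fits with arrays left out, at 1.5-fold or for the blocked difference of the inhibitor's effects. The causes were not tested. With the inhibitor on ST, the adjusted p of Ccn1 was under 0.05 with dim clusters removed (0.0455) and with limma's trend and robust options (0.0453), was 0.147 in the two-way ANOVA with Benjamini-Hochberg correction, the test the supplement names for the arrays (here with the replicate number as its other factor), and was 0.41 at most, by the t-test. Against ST control it was 0.0266 to 0.0573 in the limma fits over 9 or 18 arrays. The lower level of Ccn1 was known beforehand, so these p-values are a description.

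Leaving out 1 array gave counts of 0 to 2 in ST, 1 to 3 with the inhibitor on ST, 1 to 2 in ST with NCXI against control, 0 to 1 in TC, 0 to 2 with the inhibitor on TC, 0 to 0 in TC with NCXI against control, 0 to 2 for the difference of the stretch and tachycardia effects and 0 to 1 for that of the inhibitor's effects. It turned the sign of differences that were not counted. For the inhibitor groups against their controls, the signs of only Ccn1, Ccn2 and Ccn4 were followed. For the differences between experiments, only those of Ccn1, Ccn2 and Ccn5 were. In ST these were Ccn1 (-0.10 to 0.14), Ccn3 (-0.33 to 0.18) and Ccn4 (-0.12 to 0.54). With the inhibitor on ST this was Ccn3 (-0.0232 to 0.46), and against ST control Ccn2 (-0.0175 to 0.31). In TC these were Ccn3 (-0.15 to 0.0348), Ccn4 (-0.0110 to 0.23) and Ccn6 (-0.0382 to 0.0356). With the inhibitor on TC these were Ccn3 (-0.11 to 0.14), Ccn5 (-0.00818 to 0.18) and Ccn6 (-0.0206 to 0.0741), and against TC control Ccn2 (-0.10 to 0.0301). No other cluster carried only a member's symbol, so another cluster per gene could not be tried. With 3 arrays per group, a member that was not counted is not shown to be unchanged.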
